A study of Mus musculus with 24 samples.

Results

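The histone genes of the deposited table were taken as every row whose symbol starts with Hist1h to Hist4h, H2af, H3f3 or H1f, which gave 71 of 12611 gene symbols. Of these, 60 Hist genes are replication-dependent histones (5 linker H1, 15 H2A, 18 H2B, 10 H3 and 12 H4 genes), and 11 are replacement histones (2 linker H1, 7 H2A variants and 2 genes of H3.3). A low-count filter left 58 replication-dependent and all 11 replacement genes for testing. Hist1h2ap and Hist1h2bq had 0 counts in all 24 libraries and were not tested.

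The RNA came from lenses of CD1 mice, an outbred albino stock, split by microdissection into the lens epithelium, the cell layer over the front of the lens that holds its dividing cells, and the fiber cells that arise from it. Each tissue was sampled on 3 embryonic days (E14.5, then E16.5, then E18.5) and just after birth (P0.5), with 3 replicates per tissue and stage, which makes 8 groups. No group carries a transgene, deletion or treatment by the labels, and whether a replicate pooled lenses of several animals was not stated in the labels. Ribosomal RNA was removed and libraries were made from total RNA without a step that selects poly(A) tails.

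Replication-dependent histones supply the nucleosome core proteins (H2A, H2B, H3, H4) and linker H1 that package newly copied DNA, so their mRNAs are made mainly in S phase. Their mRNAs end in a short stem-loop instead of a poly(A) tail, and the stem-loop binding protein SLBP carries them through processing, translation and decay. Replacement histones are made throughout the cell cycle, mostly from spliced, polyadenylated mRNAs, and enter chromatin outside replication. In the lens, fiber cells leave the cell cycle, elongate, fill with crystallins and later lose their nuclei.

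Epithelium libraries held 7658794 to 11819117 counts and fiber libraries 13010174 to 21617737, and the unprocessed ribosomal RNA gene Rn45s took 3.98% to 28.9% of it. Levels are given as CPM, the count of a gene per 1000000 counts of the library after scaling with edgeR's TMM factors. The labelled tissues carried their markers: the summed level of 6 epithelium markers was 1397 to 2151 CPM in epithelium and 158 to 293 CPM in fiber, and 8 fiber markers summed to 2051 to 3786 CPM in epithelium and 78059 to 196694 CPM in fiber. By the test averaged over stages (below), 6 of 6 and 8 of 8 of these were lower and higher in fiber, respectively. Of all genes tested 22.2% were lower and 15.7% higher. All lists were chosen with earlier results of these data known, so these counts are descriptions and do not test the labels. Markers of other cells differed too, and 8 of 8 endothelium, 5 of 6 macrophage, 3 of 4 red cell, 5 of 6 mesenchyme, 4 of 6 retina and 6 of 7 pigment cell markers tested were lower in fiber, with 1 retina and 1 pigment cell marker higher. The 8 endothelium markers summed to 233 to 448 CPM in epithelium against 11.1 to 37.0 in fiber, and 6 mesenchyme markers to 364 to 723 against 26.6 to 111.2. The 6 macrophage markers measured summed to 11.1 to 29.3 CPM against 1.30 to 4.57, and the red cell list to 2.54 to 285.8 against 0.315 to 35.6, with Hba-a1, Hba-a2, Hbb-bs and Hbb-bt at 0 in every group. Retina markers summed to 6.89 to 158 CPM against 8.98 to 13.4, and pigment cell markers to 5.89 to 223.5 against 86.5 to 114. These 2 lists differed by stage. At E14.5, 1 of 6 retina and 0 of 7 pigment cell markers were lower in fiber (19.4% of all genes). At P0.5 it was 4 of 6 and 6 of 7 (24.5%). In each list 1 marker was higher at either stage (14% and 17.5% of all genes). The pigment cell sum was 8.16 to 15.99 CPM in epithelium against 86.5 to 94.5 in fiber at E14.5, and 91.1 to 193 against 93.2 to 112.6 at P0.5. The part that such cells have in the histone values below was not tested.

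The stem-loop that defines this class of mRNA is shown here because it is far more frequent among replication-dependent than among replacement members. The GENCODE M21 transcripts of each gene were searched after the stop codon for a stem of 6 bases closing a loop of 4 bases, in the form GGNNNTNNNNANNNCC with every stem base paired, on the transcript strand, and the loop is in capitals.
shared by 21 members of H1, H2A, H2B and H3: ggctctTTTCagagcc
6 H4 members: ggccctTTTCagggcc
5 H2B and H3 members: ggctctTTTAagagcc
Hist1h4b and Hist1h4j: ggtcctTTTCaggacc
Hist1h3g: ggctctTCTTagagcc
H2afx: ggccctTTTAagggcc
Of 46 replication-dependent gene models with bases after the stop codon, 39 (84.8%) held such a stem-loop, against 1 of 10 replacement models and 1.1% of 11652 other genes in the table. The 1 replacement gene is H2afx, which encodes H2A.X, the variant phosphorylated at DNA breaks. A match need not lie at the end of the annotated transcript. The transcript runs 11 bases past it in Hist1h2ab, but 2445 in Hist4h4 and 4884 in Hist1h1d. The other 14 replication-dependent models have no annotated bases after a stop codon and could not be searched. They include the processed pseudogenes Hist1h2al and Hist3h2bb-ps, which have no annotated coding sequence. The 7 models without a match include those of Hist1h1a, Hist1h2bc and Hist2h2be, whose levels are described below. They also include Hist1h2af and Hist1h2ah, with models of 399 and 405 bases. The H2A model of Hist1h2ai, which has no bases after the stop, is 393 bases long. So few bases could be searched in these 2, and a missing match there says little.

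Upstream sequence was looked at for 53 replication-dependent and 9 replacement members with an entry in RefSeq (GRCm38.p6), over 250 bases before to 50 bases after the start. CCAAT, read on both strands, was present in 84.9% of replication-dependent members, which included every H1, H2A, H2B and H3 entry and 27.3% of H4 entries, against 41.1% of 27025 genes. TATAAA was present in 60.4% against 15.7% of all genes, and the octamer ATTTGCAT in 24.5% against 1.97%, with the octamer found in 42.9% of H2A and 46.7% of H2B entries and in 0 of the H1, H3 and H4 entries. Of the 9 replacement members 66.7% held CCAAT, 11.1% TATAAA and 11.1% the octamer. The 150 bases before the start are shown for members that the results below return to, with these motifs in capitals on either strand (ATTGG and ATGCAAAT are CCAAT and the octamer read from the other strand).
Hist1h1e, linker H1, chr13:23622559-23622708, minus strand: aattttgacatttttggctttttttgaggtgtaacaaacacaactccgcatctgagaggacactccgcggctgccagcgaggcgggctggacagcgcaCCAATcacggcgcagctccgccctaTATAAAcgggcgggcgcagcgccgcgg
Hist1h2bm, the H2B gene with the largest fall in fiber, chr13:21721894-21722043, plus strand: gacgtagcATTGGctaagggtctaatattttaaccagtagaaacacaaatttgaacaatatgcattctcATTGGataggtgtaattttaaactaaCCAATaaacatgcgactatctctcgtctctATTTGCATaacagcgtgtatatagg
Hist3h2a, an H2A gene below the 2-fold limit, chr11:58954535-58954684, plus strand: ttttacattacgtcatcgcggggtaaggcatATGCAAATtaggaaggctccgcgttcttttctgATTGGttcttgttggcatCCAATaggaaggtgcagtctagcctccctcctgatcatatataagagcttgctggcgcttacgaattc
Hist1h4d, H4, chr13:23581418-23581567, plus strand: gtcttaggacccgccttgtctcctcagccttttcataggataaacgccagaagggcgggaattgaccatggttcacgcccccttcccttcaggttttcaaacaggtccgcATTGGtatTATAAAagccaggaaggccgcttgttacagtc
H3f3b, H3.3, chr11:116024505-116024654, minus strand: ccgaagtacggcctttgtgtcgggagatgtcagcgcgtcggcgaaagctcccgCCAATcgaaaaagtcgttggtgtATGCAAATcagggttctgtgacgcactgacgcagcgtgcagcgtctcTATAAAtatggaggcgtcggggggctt
Hist1h2bm and Hist3h2a both carry CCAAT and the octamer in this stretch. Whether the motifs go with the differences between the tissues was not tested. H3f3b held all 3 motifs. These matches are descriptions of letters and not of bound sites.

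The members lie in clusters. Of the 60 replication-dependent genes, 50 are on chromosome 13, 6 within chr3:96219865-96270132, 3 within chr11:58948920-58956830 and 1, Hist4h4, on chromosome 6 (GRCm38). The 11 replacement genes lie on 8 chromosomes, and H2afj on chromosome 6 (136808244 to 136810074) neighbours Hist4h4 (136801553 to 136804415). The annotation calls H2afy3, Hist1h2al and Hist3h2bb-ps pseudogenes. Exons of 20 replication-dependent and 8 replacement members overlap an exon of another gene on either strand, and which strand setting was used in counting is not stated, so single values of such members are uncertain, as are those of members that share long stretches with other histone genes.

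The sum of the replication-dependent genes was lower in every fiber library than in any epithelium library, and the replacement sum differed less. The 60 genes summed to 3198, 3024 and 3879 CPM in E14.5 epithelium, followed by 2709, 2740 and 2564 for E16.5, 2264, 2675 and 2002 for E18.5, then 1956, 2462 and 2558 for P0.5. For fiber, the E14.5 libraries had 531, 432 and 431 CPM, those of E16.5 449.8, 379.6 and 376, those of E18.5 402, 388 and 394, and those of P0.5 427, 460.3 and 368. The replacement sum ran from 678 to 942 CPM in epithelium and from 637 to 833 in fiber, and the tissues overlapped. That overlap depends on the TMM scaling: as a share of all counts, replacement genes took 0.103% to 0.138% in epithelium and 0.0324% to 0.0556% in fiber, with no overlap.

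**Figure D1:**
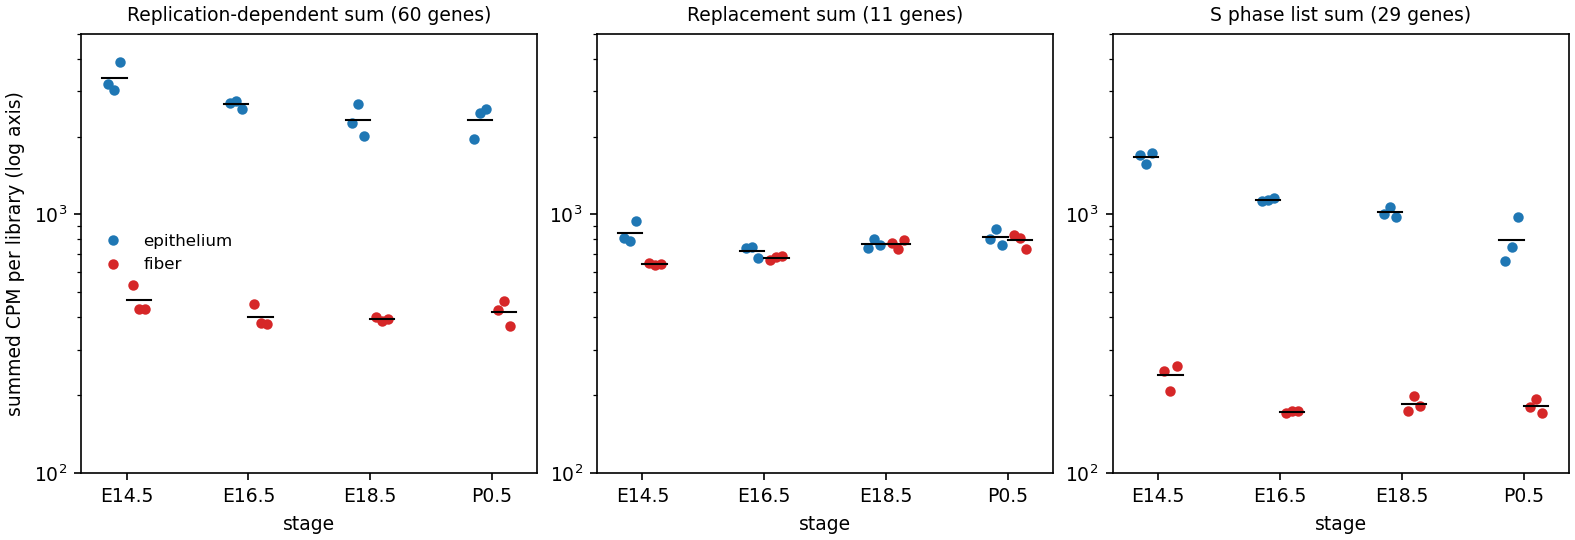
Summed CPM per library (log axis) by stage for the 60 replication-dependent histones, the 11 replacement histones and the 29 genes of an S phase list; points are libraries, blue for epithelium and red for fiber, and bars are means of 3. The replication-dependent sum was 1956 to 3879 CPM in epithelium and 368 to 531 CPM in fiber, while the replacement sums of the tissues overlapped on this scale but not as a share of all counts (0.103% to 0.138% against 0.0324% to 0.0556%).

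Replication-dependent genes made up different shares of the histone counts, a ratio within a library that does not depend on scaling between libraries. In epithelium, from the earliest stage to the latest, their share was 79.9% ± 0.54 (SD, n = 3), 78.7% ± 0.35, 74.9% ± 2.31 and 73.9% ± 3.10. In fiber, over the same order of stages, it was 41.9% ± 2.76, 37.1% ± 2.79, 34.0% ± 0.84 and 34.5% ± 1.55. The log2 ratio of the replication-dependent to the replacement sum was 2.52 lower in fiber, averaged over the stages, and 2.94 lower when counts were divided by gene model length. Of all counts in a library, replication-dependent genes took 0.307% to 0.560% in epithelium and 0.0172% to 0.0434% in fiber. In bulk tissue, fewer cells with such RNA and less RNA per cell cannot be told apart.

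The summed level of 29 S phase genes was also lower in fiber, at 661 to 1723 CPM in epithelium and 171 to 258 CPM in fiber. The log2 ratio of the replication-dependent histone sum to the S phase sum was, for E14.5, 1.01 ± 0.14 in epithelium against 0.96 ± 0.19 in fiber, and for P0.5, 1.56 ± 0.17 against 1.201 ± 0.083 (SD, n = 3). Averaged over the stages the ratio differed by −0.12 between fiber and epithelium, against −2.52 for the ratio to replacement histones. A sum weighs abundant members most. In fiber, 6 genes not called lower (below) made 32.9% of the replication-dependent sum at E14.5 and 39.98% at P0.5. In epithelium they made 6.67% and 6.86%. The median log2 difference per gene was −4.17 for replication-dependent histones and −2.70 for the S phase list, so the ratio of sums does not show how far single genes fell. Both ratios are descriptions and were not tested.

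Gene by gene, the tissues were compared with edgeR's quasi-likelihood test on all 12427 genes that passed the filter, and a gene was called at a Benjamini-Hochberg adjusted p under 0.05 and a difference of at least 2-fold. Averaged over the 4 stages, 52 of 58 replication-dependent genes tested were lower in fiber (22.2% of all genes tested were called lower) and 0 were higher (15.7% of all genes were). At an unadjusted p under 0.05 by edgeR 2 were higher, and DESeq2 called 0. The median log2 difference of the 58 was −4.17, beside −0.03 over all genes tested. By class, 5 of 5 H1, 12 of 14 H2A, 13 of 17 H2B, 10 of 10 H3 and 12 of 12 H4 genes were lower. The same 52 genes were lower at each of the 4 stages when tested separately.

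**Figure D2:**
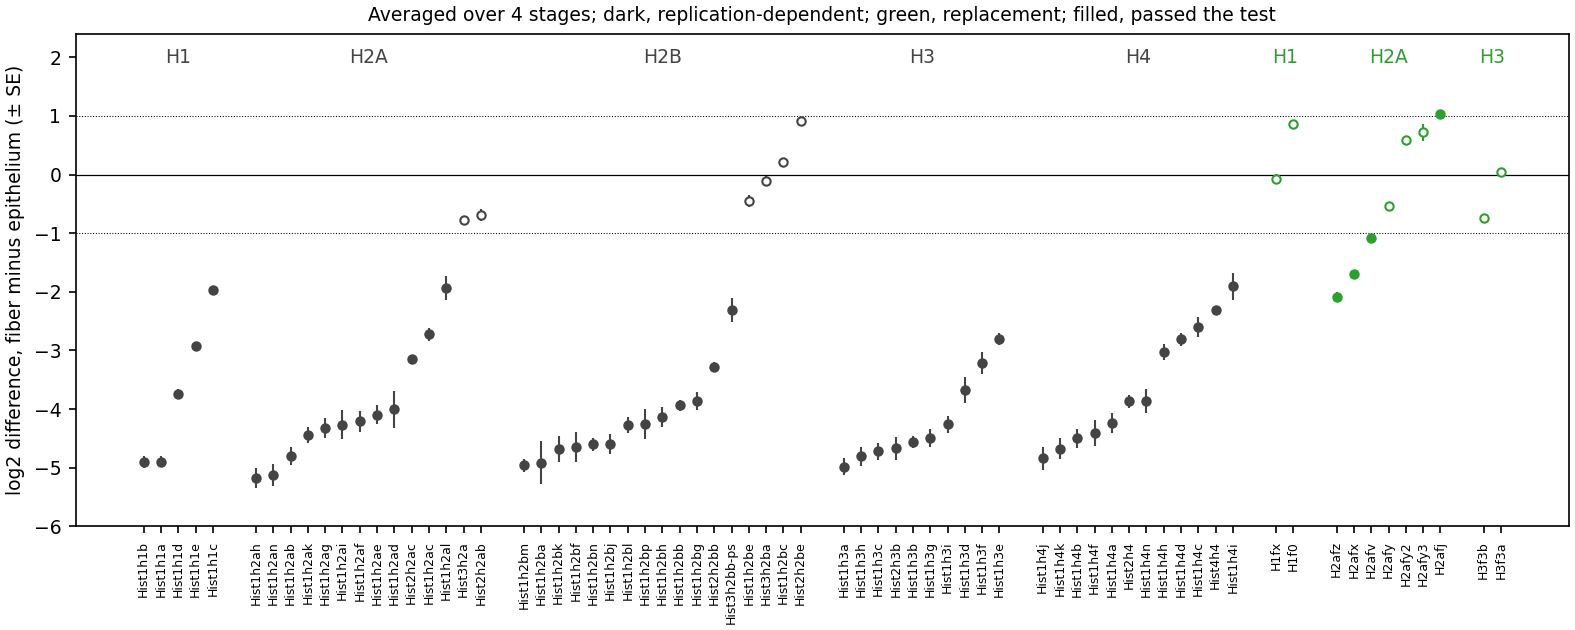
Log2 difference between fiber and epithelium averaged over 4 stages for the 69 histone genes tested, by class, with SE from edgeR's fit; filled points passed the test and dotted lines mark 2-fold. Most replication-dependent genes lie between −5.17 and −1.91, and 6 within the 2-fold lines lie between −0.77 and 0.91. Replacement genes run from −2.09 (H2afz) to 1.03 (H2afj). Scaled by total count alone, all 7 members with a positive difference became negative (H2afj −0.17).

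All 5 replication-dependent linker H1 genes were lower in fiber, by differing amounts. Hist1h1c (chr13:23738808-23740367, 1 exon), which encodes the subtype H1.2, was at 145.8 to 273 CPM in epithelium (median 188) and at 38.5 to 73.0 in fiber (median 46.6). The tissues did not overlap, and the log2 difference was −1.97 ± 0.06 (SE). Hist1h1e (chr13:23620629-23622558), for H1.4, was at 138 to 239.7 CPM (median 189) in epithelium and at 17.4 to 29.2 (median 24.9) in fiber, a log2 difference of −2.93 ± 0.07. Of its exon bases, 25.7% also lie in exons of Hist1h2be or Gm11398 on the same strand. Hist1h1a (chr13:23763666-23764406), for H1.1, went from 75.3 to 110.4 CPM (median 89.2) to 1.33 to 8.18 (median 2.76), and Hist1h1b, for H1.5, showed the same difference of −4.90. Within 1 class the drop thus ranged from 3.9-fold to 29.9-fold.

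Most replication-dependent H2A genes had differences past −4. The largest fall of all members was that of Hist1h2ah (chr13:22035164-22035568). It had 7.73 to 31.3 CPM in epithelium (median 13.9) and 0.0768 to 1.18 in fiber (median 0.289), where its 12 libraries held 63 counts in all, and its log2 difference was −5.17 ± 0.17. It shares 89.5% of its 100-base windows with other genes, so its own count is uncertain. Hist1h2al, listed as a processed pseudogene apart from the cluster (chr13:51202727-51203065), had the highest mean level of the replication-dependent H2A genes in epithelium, 22.7 to 128.9 CPM (median 70.3) in epithelium and 8.72 to 26.6 (median 18.6) in fiber, and its libraries overlapped between the tissues (−1.94 ± 0.21). Hist3h2a (chr11:58954685-58956830) had the highest level of these H2A genes over the 8 groups, at 45.7 to 101.3 CPM in epithelium (median 60.5) and 28.6 to 45.9 in fiber (median 37.4). Its averaged difference of −0.77 ± 0.04 stayed under 2-fold, and 33% of its exon bases also lie in an exon of Trim17 on the same strand.

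The H2B genes ran from clear falls to small positive differences. Hist2h2bb (chr3:96269752-96270132) was at 124 to 242 CPM in epithelium (median 153) and 11.02 to 26.6 in fiber (median 16.9), a difference of −3.27 ± 0.07 with no overlap, and all of its 100-base windows recur in other genes. Hist1h2bm fell from 34.3 to 90.5 CPM (median 55.8) to 0.777 to 4.37 (median 1.65), a difference of −4.95 ± 0.11. Hist1h2bc (chr13:23684199-23692908, 2 exons) was not called, with 27.4 to 61.6 CPM in epithelium (median 42.1) and 32.2 to 64.0 in fiber (median 46.4), and the tissues overlapped (0.21 ± 0.06). Hist2h2be (chr3:96221119-96223738) was at 7.54 to 12.2 CPM in epithelium (median 8.99) and at 12.9 to 21.3 in fiber (median 18.1), with no overlap, though its difference of 0.91 ± 0.06 was under 2-fold and became −0.29 by total count alone.

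All replication-dependent H3 and H4 genes tested were lower in fiber. Hist1h3a (chr13:23761853-23762386) went from 23.8 to 52.8 CPM (median 31.4) to 0.315 to 3.78 (median 0.855), a log2 difference of −4.98 ± 0.15, the largest of the H3 genes. Hist1h3e (chr13:23561534-23562369) was the replication-dependent H3 gene with the highest level. It went from 37.7 to 84.0 CPM (median 54.8) to 5.98 to 9.48 (median 7.94), a difference of −2.81 ± 0.10. Hist1h4d (chr13:23581598-23582735), the highest of the H4 genes and without a shared 100-base window, was at 92.0 to 302 CPM (median 177) in epithelium and 16.8 to 37.3 (median 24.6) in fiber, also −2.81, with an SE of 0.11. Hist1h4h (chr13:23531050-23531519) was at 60.8 to 163 CPM (median 124) and 10.8 to 18.6 (median 13.3), a difference of −3.03 ± 0.13. None of these 4 genes overlapped between the tissues.

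**Figure D3:**
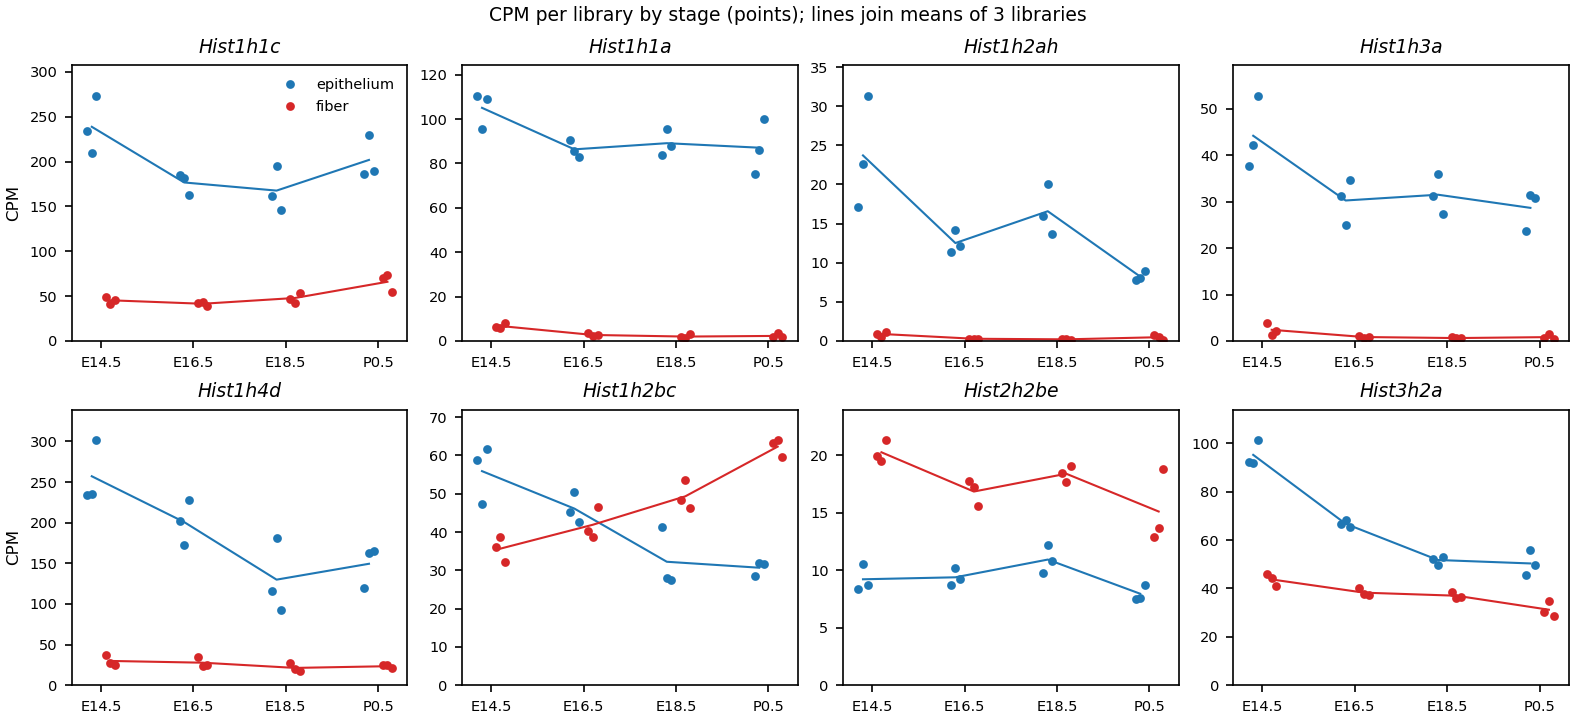
CPM per library by stage for 8 replication-dependent histones; points are libraries (3 per group), lines join group means, blue for epithelium and red for fiber, and each panel has its own axis from 0. In 5 genes fiber lies far below epithelium, Hist3h2a is closer, and on this scale Hist2h2be is higher in fiber and Hist1h2bc crosses over between E14.5 and P0.5; by total count alone the P0.5 differences of both are negative (−0.53 and −0.43).

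The 6 replication-dependent genes not called were 4 H2B genes (Hist1h2bc, Hist2h2be, Hist1h2be at −0.46 and Hist3h2ba at −0.11) and 2 H2A genes (Hist3h2a and Hist2h2ab at −0.69). Of the exon bases of Hist1h2be, 11.2% also lie in exons of Hist1h1e or Gm11398 on the same strand. The 6 genes were picked out by this result, so what follows is a description. In epithelium they made 6.67% ± 0.22 of the replication-dependent sum at E14.5 and 6.86% ± 0.62 at P0.5, but in fiber 32.9% ± 2.76 and 39.98% ± 2.47 (SD, n = 3). Hist1h2bc alone went from 7.74% ± 1.08 to 14.98% ± 1.15 of the sum in fiber, beside 1.66% ± 0.15 and 1.33% ± 0.11 in epithelium. Scaled by total count alone, which moved the median of all genes to −1.23, 4 of the 6 were called lower (59.7% of all genes were). Hist1h2bc (−0.998) and Hist2h2be (−0.29) were not.

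How far a replication-dependent gene fell went with the length of its annotated exons. Of 44 genes with a model under 1000 bases, 42 were lower, with a median of −4.37. Of 14 with a longer model 10 were lower, with a median of −2.77. Beside these counts, 22.2% of all genes tested were lower. Spearman's rho between the log2 difference and the model length was 0.46 over the 58 genes, and −0.38 for the share of windows that a gene has in common with others. Genes of a cluster share libraries and sequence, so these are descriptions across genes without a test.

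**Figure D4:**
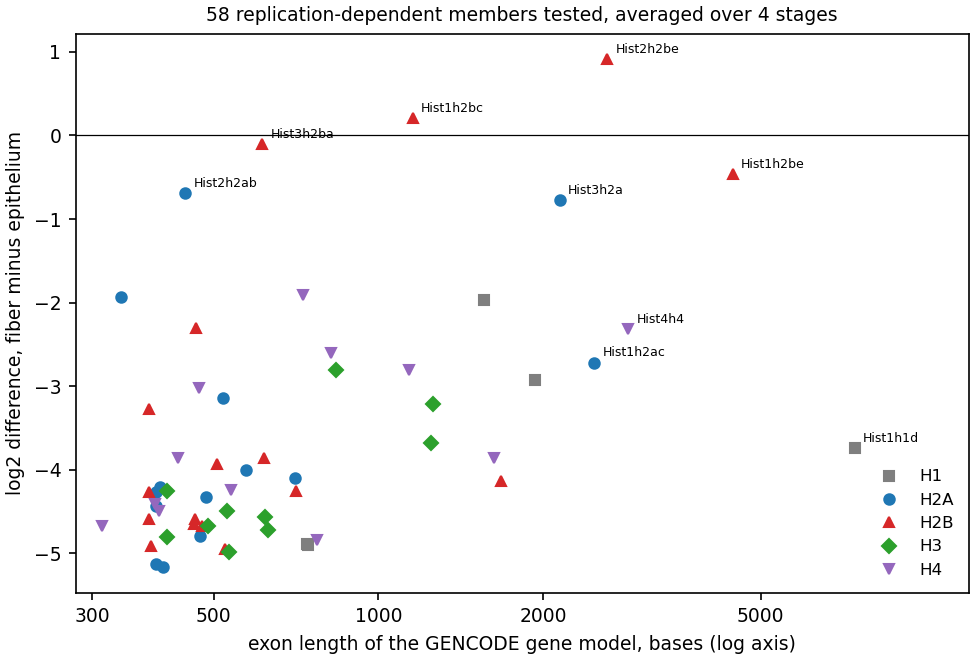
Log2 difference between fiber and epithelium (averaged over 4 stages) against the exon length of the GENCODE model (log axis) for 58 replication-dependent histones, marked by class. Short models sit mostly below −4, and 4 of the 6 genes above −1 (Hist2h2be, Hist1h2bc, Hist1h2be and Hist3h2a) have models longer than 1000 bases.

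Replacement histones did not move as a block. Averaged over the stages 3 of 11 were lower in fiber (22.2% of all genes were), 1 was higher (15.7% of all genes) and 7 were not called, with a median of −0.07. Directions near 0 depend on the scaling: by total count alone 7 were lower (59.7% of all genes were) and 0 higher (4.72%), while H2afv, H2afx and H2afz were lower under every one of 32 settings tried. Among the linker genes, H1f0 (chr15:79028450-79030504), which encodes H1.0, the linker histone known from cells that have stopped dividing, was the most abundant histone in fiber. It was at 115.9 to 185 CPM in epithelium (median 136) and 190.0 to 338 in fiber (median 251), with no overlap, but its averaged difference of 0.85 ± 0.04 was under 2-fold (−0.35 by total count alone). It passed the test at E18.5 (1.11) and P0.5 (1.124), calls not made at any stage by total count alone. H1fx (chr6:87980421-87981637) overlapped between the tissues, at 34.0 to 61.5 CPM (median 45.1) in epithelium and 27.6 to 67.5 (median 44.9) in fiber (−0.07 ± 0.08).

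The H2A variants differed from each other. H2afz (chr3:137864487-137866922) and H2afv (chr11:6427229-6444443) both encode H2A.Z, the variant found at promoters. H2afz was at 11.8 to 17.3 CPM (median 13.9) in epithelium and 2.16 to 4.87 (median 3.27) in fiber (−2.09 ± 0.09). H2afv was at 36.6 to 48.8 CPM (median 38.7) and 15.6 to 24.4 (median 19.4), a difference of −1.08 ± 0.04, and neither gene overlapped between the tissues. H2afx (chr9:44334694-44336077), the replacement gene with a stem-loop, was at 55.6 to 144.7 CPM (median 67.5) in epithelium and 17.4 to 27.7 (median 23.0) in fiber (−1.70 ± 0.07), again without overlap. H2afj (chr6:136808244-136810074), for the variant H2A.J, was the 1 member called in the other direction, at 5.62 to 10.6 CPM (median 8.56) in epithelium and 11.3 to 27.0 (median 17.5) in fiber. Its difference of 1.03 ± 0.07 became −0.17 by total count alone, so its direction depends on the scaling.

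Both macroH2A genes, whose large variant carries an extra domain and is known from silent chromatin, had differences of opposite sign. H2afy (chr13:56073619-56136361), for macroH2A1, was at 118.8 to 152 CPM (median 137) in epithelium and 72.9 to 113.6 (median 93.9) in fiber, without overlap and under 2-fold (−0.54 ± 0.04). H2afy2 (chr10:61738665-61784147), for macroH2A2, was at 33.6 to 46.0 CPM (median 38.5) in epithelium and 26.4 to 96.5 (median 67.1) in fiber (0.59 ± 0.04, and −0.61 by total count alone), and the tissues overlapped. The pseudogene H2afy3 (chr15:62218221-62219332) was low, at 0.833 to 1.55 CPM (median 1.08) and 0.597 to 4.68 (median 2.32).

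The 2 genes of H3.3, which make 1 protein, also differed. H3f3a (chr1:180800832-180813943) overlapped fully, at 40.5 to 65.5 CPM (median 51.0) in epithelium and 41.7 to 64.7 (median 54.7) in fiber (0.04 ± 0.06, and −1.17 by total count alone). H3f3b (chr11:116021912-116027962) was at 187 to 317 CPM (median 228) in epithelium and 97.5 to 173 (median 142) in fiber, without overlap, with a difference of −0.75 ± 0.06 that passed 2-fold only at P0.5 (−1.35 ± 0.12). Per kilobase of gene model, H3f3b was at 78.4 CPM and H3f3a at 14.7 in epithelium, and at 46.7 and 15.2 in fiber.

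**Figure D5:**
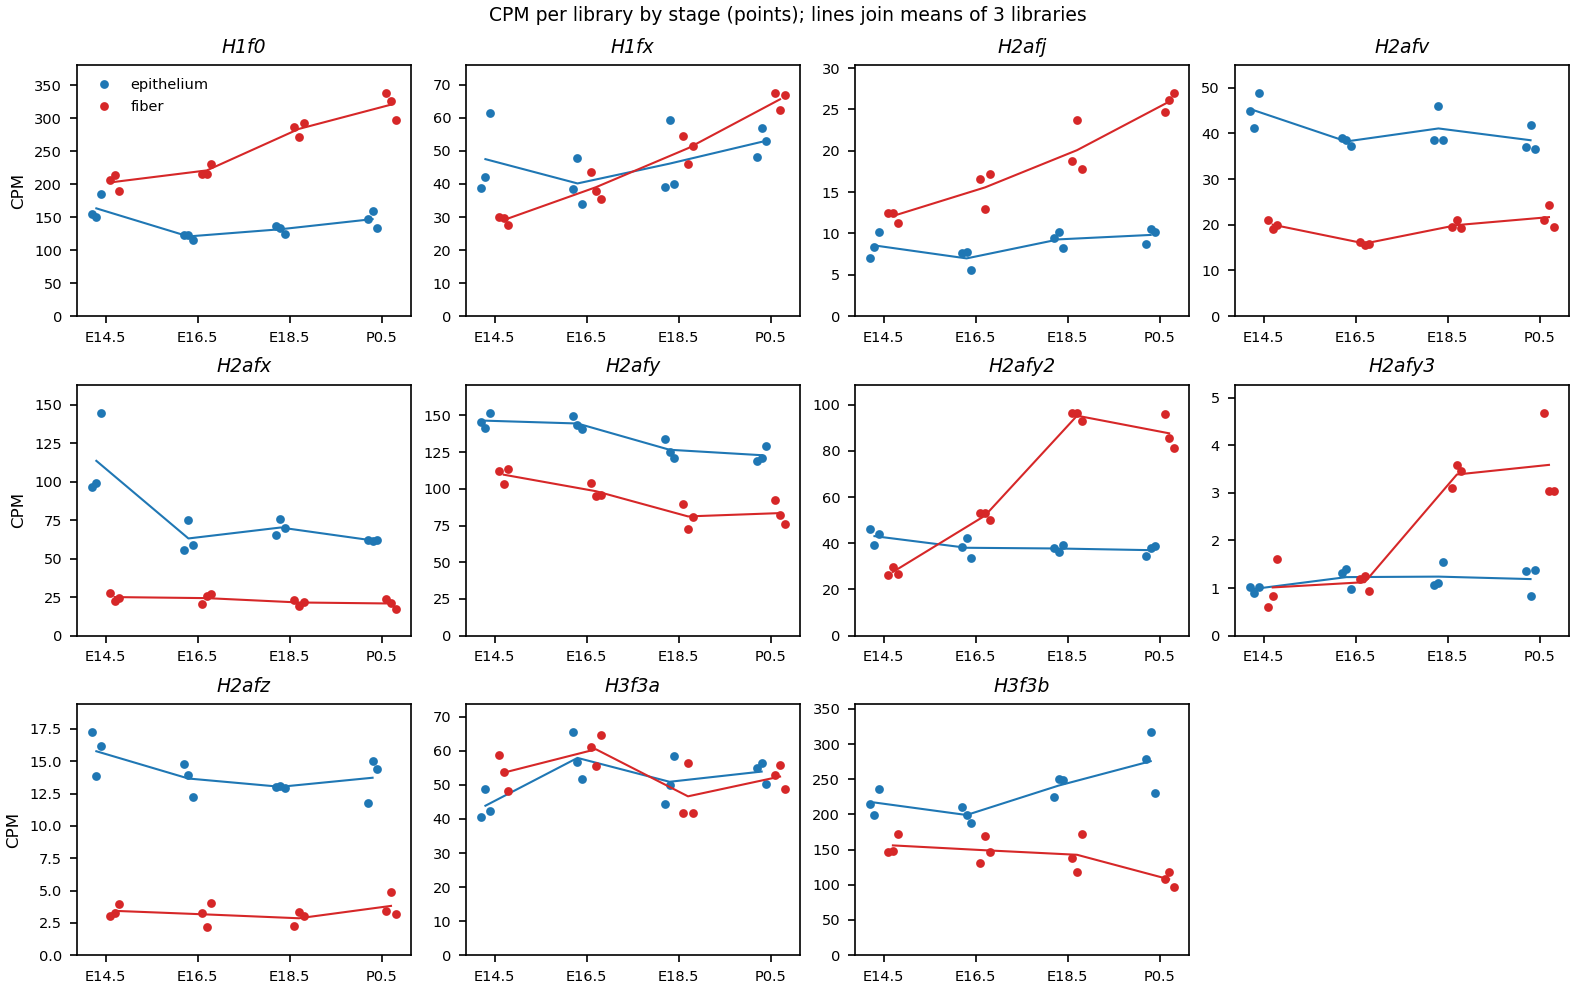
CPM per library by stage for the 11 replacement histones; points are libraries (3 per group), lines join group means, blue for epithelium and red for fiber, and each panel has its own axis from 0. H2afz, H2afx and H2afv lie lower in fiber at each stage, and in H1f0, H1fx, H2afj and H2afy2 the P0.5 fiber libraries lie above those of E14.5.

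Stage by stage, the replication-dependent count hardly changed: 53 were lower in fiber at E14.5 (19.4% of all genes). The count was 52 for each later stage (20.4%, 24.2% and 24.5% of all genes in turn). The additional gene at E14.5 was Hist3h2a (−1.12). Those higher in fiber were Hist2h2be at E14.5 (1.14 ± 0.12, beside 14% of all genes higher) and Hist1h2bc at P0.5 (1.02 ± 0.12, beside 17.5%). By total count alone neither was called, at 0.32 and −0.43. For E16.5 and E18.5 edgeR called 0 higher, with 1 and 2 at an unadjusted p under 0.05, and DESeq2 called 0. Replacement genes higher in fiber numbered 0 at E14.5 (3 at an unadjusted p under 0.05 by edgeR, and 0 by DESeq2), then 1 (H2afj, beside 14.6% of all genes), 4 (beside 17.4%) and 4 in the later stages. The 4 were H1f0, H2afj, H2afy2 and H2afy3 both times. By total count alone no stage had a higher one, and 7 or 8 were lower in place of 3, beside 41.4% to 68.9% of all genes.

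The course from E14.5 to P0.5 asks how histone RNA changed within a tissue. In epithelium 9 of 58 replication-dependent genes were lower at P0.5 (3.21% of all genes were), with a median of −0.62 beside 0.01 for all genes. EdgeR called 0 higher (10.1% of all genes were), with 1 at an unadjusted p under 0.05, and DESeq2 called 0. All 9 have models under 1000 bases: 4 H2A genes, 4 H2B genes and Hist1h4j. The largest fall was that of Hist1h2ah, from 17.2, 22.6 and 31.3 CPM at E14.5 to 7.73, 8.01 and 8.94 at P0.5, groups that did not overlap (−1.53 ± 0.18). More abundant members moved less: Hist1h1c had 234, 209 and 273 CPM at E14.5 and 186, 229.5 and 190.0 at P0.5, which overlapped (−0.24 ± 0.11), and Hist1h4d had 235, 235 and 302 against 120.2, 163 and 165, which did not (−0.78 ± 0.19). Of the 11 replacement genes 0 were called by either edgeR or DESeq2, with 4 lower and 2 higher at an unadjusted p under 0.05. H2afx came nearest, from 96.4, 99.2 and 144.7 CPM to 61.9, 61.4 and 62.1 (−0.88 ± 0.13).

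The epithelium count rests on few libraries, with 5 lower without E14.5 replicate 3 and 15 without P0.5 replicate 3. Beside it, 18 of 29 S phase genes and 18 of 22 mitosis genes were lower at P0.5 (medians of −1.07 and −1.1997), where 3.21% of all genes were. Markers of other cells also moved: all 6 retina and all 7 pigment cell markers measured rose (10.1% of all genes were higher). Their sums were 6.89 to 15.6 and 8.16 to 15.99 CPM at E14.5 and 100.5 to 128 and 91.1 to 193 CPM at P0.5. Of the mesenchyme markers 5 of 6 fell, from a sum of 641 to 723 CPM to 377 to 418, and 4 of 4 red cell markers tested fell, from 181 to 286 to 2.54 to 3.67. Their part in the histone result was not tested.

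In fiber 19 of 58 replication-dependent genes were lower at P0.5 than at E14.5 (5.24% of all genes), with a median of −0.87 beside −0.02. EdgeR called 0 higher (6.69% of all genes were), with 2 at an unadjusted p under 0.05, and DESeq2 called 0. Among the 19 were members with few counts. Hist1h2ab (chr13:23751126-23751598), an H2A gene with the largest fall, had 2.78, 1.59 and 2.36 CPM at E14.5 and 0.633, 0.798 and 0 at P0.5, which is 42, 17 and 28 counts against 5, 10 and 0 (−2.18 ± 0.56). Hist1h1a fell from 6.36, 5.61 and 8.18 CPM to 1.77, 3.43 and 1.58 (−1.49 ± 0.26), and Hist1h1b by 1.22. By contrast Hist1h1c was at 48.7, 41.3 and 46.0 CPM at E14.5 and 70.0, 73.0 and 54.9 at P0.5, which did not overlap and stayed under 2-fold (0.54 ± 0.13, and −0.01 by total count alone). Hist1h2bc was at 36.2, 38.6 and 32.2 CPM and then at 63.3, 64.0 and 59.6, also without overlap and under 2-fold (0.81 ± 0.12).

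The fiber count of 19 became 7 without P0.5 fiber replicate 3 and 9 without E14.5 fiber replicate 1. Total count alone, which moved the median of all genes to −0.56, gave 40 (17.4% of all genes were lower by it). With TMM scaling, 20 of 22 mitosis genes and 8 of 29 S phase genes were lower (5.24% of all genes were). The 1 S phase gene called higher was E2f1 (6.69% of all genes were higher). Of the lens epithelium markers 2 of 6 fell in fiber (Sfrp2 by 5.29 and Foxe3 by 1.60), with a sum of 239.7 to 293 CPM at E14.5 and 158 to 198 CPM at P0.5. Of the fiber markers 5 of 8 rose, from a sum of 78059 to 83691 CPM to 195381 to 196694, and 1 of 8 endothelium markers, Tek, fell, beside sums of 25.5 to 37.0 and 14.8 to 15.7 CPM. Further, 4 of 4 red cell and 4 of 6 mesenchyme markers tested fell, from sums of 22.9 to 35.6 and 98.3 to 111.2 CPM to 0.315 to 1.04 and 26.6 to 47.9. Their part was not tested either.

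Of the 11 replacement genes 4 rose in fiber (6.69% of all genes were higher) and 7 were not called, with a median of 0.19. By total count alone the median was −0.36, 2 of the 4 (H2afy2 and H2afy3) rose and H3f3b fell (−1.08), beside 2.95% of all genes higher and 17.4% lower. H2afy2 rose most clearly, from 26.4, 29.6 and 26.6 CPM at E14.5 through 52.9, 52.9 and 50.1 to 96.5, 96.3 and 92.8 before birth, with 95.8, 85.6 and 81.2 just after it (1.67 ± 0.08). H2afj rose from 12.5, 12.5 and 11.3 CPM to 24.7, 26.2 and 27.0 (1.10 ± 0.14, and 0.55 by total count alone). H1fx rose from 30.1, 29.6 and 27.6 CPM to 67.5, 62.4 and 67.0 (1.17 ± 0.16, and 0.62 by total count alone). H2afy3 rose by 1.82 ± 0.29, from 9, 9 and 19 counts to 37, 38 and 29. In each of these 4 genes the stages did not overlap, and H1f0, at 207, 214 and 190.0 CPM and then 338, 327 and 297, was without overlap too but under 2-fold (0.66 ± 0.07).

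Between neighbouring stages few members passed. In fiber 8 replication-dependent genes fell from E14.5 to E16.5 (1.61% of all genes were lower and 1.46% higher), among them Hist1h1a (−1.34), Hist1h1b (−1.47) and Hist1h3a (−1.60), and 0 passed in the later steps (0.724% and 0.241% of all genes were lower, and 0.298% higher in the last). At an unadjusted p under 0.05 edgeR had 2 lower and 0 higher from E16.5 to E18.5, and 2 lower and 2 higher from E18.5 to P0.5, and DESeq2 called 3 and 0 lower and 0 higher. The count of 8 was 14 by DESeq2 and 22 by total count alone (2.89% of all genes were lower by it). It was 4 without E14.5 fiber replicate 1 or E16.5 fiber replicate 2, and 5 without E16.5 fiber replicate 3. In epithelium edgeR called 0, 0 and 1 lower over the successive steps (0.821%, 0.547% and 0.426% of all genes), with 24, 12 and 11 at an unadjusted p under 0.05, and DESeq2 called 0, 0 and 1. The 1 was Hist1h2ah from E18.5 to P0.5 (−1.004). None was called higher by edgeR or DESeq2 (1.71%, 6.75% and 0.579% of all genes were), with 0, 4 and 1 at an unadjusted p under 0.05. H2afy3 was the only replacement gene called in any step (E16.5 to E18.5 in fiber, beside 1.91% of all genes higher).

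Whether the tissue difference itself changed from E14.5 to P0.5 was tested as an interaction, which called 5 of 69 members. Of all genes 7.92% were lower and 3.77% higher, so this count is not more than the general rate. Hist1h2bc moved from 58.7, 47.3 and 61.6 CPM to 28.4, 31.8 and 31.8 in epithelium, beside 32.2 to 38.6 CPM and later 59.6 to 64.0 in fiber, and its tissue difference from −0.65 to 1.02, or −1.46 to −0.43 by total count alone (interaction 1.67 ± 0.17, adjusted p = 8.82e-08, edgeR). For H2afy2 the difference was −0.65 and later 1.24, or −1.45 and −0.21 by total count alone (1.88 ± 0.11, adjusted p = 1.47e-11, edgeR), with epithelium at 46.0, 39.4 and 43.8 CPM and then 34.6, 37.7 and 38.7. H1fx (1.03 ± 0.22) and H2afy3 (1.54 ± 0.43) changed in the same direction, and lost the call by total count alone. Hist1h1a changed the other way (−1.22 ± 0.29, adjusted p = 0.00148, edgeR), from −3.96 to −5.18. Leaving out 1 library gave 4 to 8 called members. Total count alone gave 22, beside 26.2% of all genes lower and 1.11% higher by that scaling.

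A list drawn around histone mRNA processing, which also holds genes of transcription and the cell cycle (among them Npat, Hinfp, Cdk2, Ccne1 and Ccne2), showed mixed differences. Of 20 in the table, 6 were lower in fiber and 1 higher, beside 22.2% and 15.7% of all genes, with a median of −0.18. By total count alone 15 were lower and 0 higher, beside 59.7% and 4.72% of all genes. Slbp, the stem-loop binding protein, had 33.3 ± 1.67 CPM in epithelium against 8.95 ± 2.06 in fiber for E14.5, and 25.6 ± 4.10 against 4.74 ± 0.26 for P0.5 (SD, n = 3), an averaged log2 difference of −2.22 ± 0.07. The largest falls were those of Cdk2 (−3.29), Ccne2 (−3.12) and Slbp, and Cpsf2, a subunit of the cleavage complex, was higher (1.13). Cdk2 and Ccne2 encode the kinase and the cyclin that drive entry into S phase and do not themselves process mRNA. Ccne2 is counted in the S phase list too.

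Histone chaperones hand histones to DNA. Of 31 in the table, 9 were lower and 4 higher in fiber, beside the same 22.2% and 15.7% of all genes, with a median of −0.60. By total count alone 22 were lower and 1 higher, beside 59.7% and 4.72% of all genes. Chaf1b (−4.72) and Chaf1a (−3.97), subunits of CAF-1, which places H3 and H4 behind the replication fork, fell most, followed by Asf1b (−3.65). Its relative Asf1a had 27.8 ± 1.77 CPM in epithelium against 34.9 ± 0.96 in fiber for E14.5 (SD, n = 3) and was not called (0.22), and Hira, which places H3.3, was at 69.9 ± 6.58 and 41.2 ± 3.69 (averaged −0.60, not called). Those higher were Nap1l4 (2.95), Ipo4 (1.15), Ubn2 (1.03) and Ubn1 (1.001). Ubn1 and Ubn2 are partners of Hira.

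Of the S phase list, 27 of 29 were lower in fiber and 0 higher (by edgeR, with all 29 differences negative), beside 22.2% and 15.7% of all genes. The median was −2.70. The largest falls were those of Rrm2 (−5.08), Tk1 (−4.64) and Orc1 (−4.46), and Pcna fell from 30.9 ± 3.91 CPM to 5.76 ± 0.58 at E14.5 (averaged −2.40). All 22 mitosis genes were lower (22.2% of all genes were), with a median of −4.57, and Mki67 went from 546 ± 11.9 CPM to 35.0 ± 9.23 at E14.5 (averaged −4.61). The median of the replication-dependent histones, −4.17, lay between the medians of the S phase and mitosis lists.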

How the data were processed

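RNA was measured in 24 libraries, and samples were grouped by the tissue and stage in their titles. The deposited values are raw counts per gene symbol. The submitters' processing notes name Trim Galore 0.4.1, TopHat2 2.0.13, HTSeq 0.6.1, Cufflinks 2.2.1 and the build mm10, without saying which step made the counts. Counts were fitted with edgeR 4.0.16 (R 4.3.3): TMM scaling, filterByExpr with a minimum count of 10 and a minimum total of 15, 8 group means and the quasi-likelihood test with 16 residual degrees of freedom. P-values were adjusted by Benjamini-Hochberg over 12427 genes. SEs of log2 differences are the difference divided by the square root of F. Nothing states that replicates came from separate animals, so p-values measure the spread between these samples, which may be technical. The histone members and all lists were chosen with earlier results of these data known. Named members are the 2 with the highest mean level in each replication-dependent class, all tested replacement genes, any called against most of its kind, and the largest rise and fall of each main comparison; of each process list, the 3 largest calls each way and Slbp, Asf1a, Asf1b, Hira, Chaf1a, Mki67 and Pcna. Hist1h1b, Hist1h2bm, Hist2h2be and the other uncalled members were added after their values were seen. On simulated counts for the averaged tissue comparison over 12427 genes, the fit recovered 58% of 2-fold and 98% of 4-fold changes. For P0.5 against E14.5 it recovered 36% and 94% in epithelium, and 40% and 94% in fiber. A call needs an estimate of at least 2-fold, which limits the recovery of true 2-fold changes. Alternatives were DESeq2 1.42.0, total counts without TMM, crystallins or Rn45s left out, no filter, only the groups compared, a replicate block and leaving out each library. Positions are from GENCODE M21 (GRCm38), promoters from RefSeq.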

Additional observations from a re-analysis of the deposited data

Results flagged for a closer look

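In 5 of 69 histone genes tested the difference between fiber and epithelium changed from E14.5 to P0.5 by edgeR's interaction test. Of all genes 7.92% were called lower and 3.77% higher, so 5 of 69 is not more than the general rate. Of 58 replication-dependent genes 1 was lower and 1 higher, and of 11 replacement genes 0 were lower and 3 higher. Each is given on the log2 scale with its SE and adjusted p. H2afy2 (macroH2A2) changed by 1.88 ± 0.11 (adjusted p = 1.47e-11, edgeR) and Hist1h2bc, an H2B gene, by 1.67 ± 0.17 (adjusted p = 8.82e-08, edgeR). For both, 3 of 3 fiber libraries were higher at P0.5 than every E14.5 fiber library. H2afy3, a pseudogene with few counts, changed by 1.54 ± 0.43 (adjusted p = 0.00568, edgeR), and by 0.90, without a call, by total count alone. H1fx, a linker H1 gene, changed by 1.03 ± 0.22 (adjusted p = 0.000638, edgeR), and fell under 2-fold by total count alone (0.38), with the replicate block (0.998) and without 1 library (E14.5 epithelium replicate 3, 0.79; E14.5 fiber replicate 3, 0.99; P0.5 epithelium replicate 1, 0.97). Hist1h1a, for H1.1, changed by −1.22 ± 0.29 (adjusted p = 0.00148, edgeR). Retina and pigment cell markers rose in epithelium over the same stages, and their part in these changes was not tested.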

How the results depend on the processing

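The 52 replication-dependent genes, H2afv, H2afx and H2afz were lower in fiber under all 32 settings. By total count alone, 7 replacement genes were lower and 0 higher in the averaged comparison (59.7% and 4.72% of all genes). The separate stages, in order, had 7, 8, 7 and 7 lower (41.4%, 54.2%, 68.9% and 67.9% of all genes) and 0 higher (4.23% to 6.04%). Of the averaged differences, 7 turned from positive to negative: those of H2afj (−0.17, no longer called), H3f3a (−1.17, now called lower), and H1f0, H2afy2, H2afy3, Hist1h2bc and Hist2h2be, not called under either scaling. In the fiber course, total count alone gave 40 replication-dependent genes lower (17.4% of all genes) and 2 replacement genes higher (2.95%). It gave 22 and 9 lower in the first and the second fiber step (2.89% and 2.84%) and 0 in the last epithelium step (0.386%). Interaction calls by it numbered 22 (26.2% of all genes were lower and 1.11% higher). DESeq2 gave 14 and 3 lower in the first and the second fiber step. With only the groups compared, 2 were lower in the second fiber step and 0 in the last epithelium step. Per kilobase, the log2 ratio of the sums differed by −2.94. Leaving out each library gave 5 to 15 lower in the epithelium course, 7 to 20 in the fiber course, 0 to 2, 0 to 1 and 0 to 4 in the epithelium steps, 4 to 10 and 0 to 1 in the first and the second fiber step, and 4 to 8 interaction calls. The cause of these shifts was not tested. Same-numbered samples of both tissues correlated over 0.1 in 3 of 12 pairs (−0.0662 to 0.221), and 6 of 12 correlated best with their own number, so the numbers were not taken to pair samples. With the replicate block, 1 replication-dependent gene was lower from E16.5 to E18.5 in epithelium in place of 0. In the interaction H1fx lost its call and replication-dependent genes called lower went from 1 to 4 (3 by DESeq2). Few counts limit single replication-dependent genes in fiber, where Hist1h2ah had 63 counts in 12 libraries.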
